A study of Homo sapiens with 9 samples.

Results

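The splicing factors and hnRNPs described here were the 113 probes, of 72 genes, whose gene name on the array began with HNRNP or HNRP, SRSF or SFRS and a digit, SF3A or SF3B and a digit, SNRP, U2AF, or PRPF and a digit, with SNRPN left out. They were chosen by name among the 42405 probes that were not control probes. The cells were hNT2, a human embryonal carcinoma line that takes a neural course in the presence of retinoic acid, and all 9 cultures were in differentiation medium with 10 µM retinoic acid for 4 days (96 h in the labels). The 3 control cultures received no organophosphorus compound, 3 cultures received 1 µM paraoxon and 3 received 5 µM mipafox in that medium, so the compounds were not tested at a matched dose. Each RNA was hybridized to a one-colour Agilent array, and the arrays of a treatment are called A, B and C. The arrays came on 2 slides, slide 1 with all controls plus mipafox A and slide 2 with all of paraoxon plus mipafox B and C. Paraoxon and control thus shared no slide, and a difference between them and a difference between the slides cannot be told apart. The labels call the arrays of a treatment biological replicates while the study's text calls them technical, and where they are technical a p-value measures only the spread between arrays.

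Splicing removes introns from pre-mRNA on the spliceosome, which is built from small nuclear ribonucleoproteins, the snRNPs. The Sm proteins form the ring on the RNA of most snRNPs, U2AF marks the end of the intron, SF3A and SF3B hold the branch point as parts of the U2 snRNP, and the PRPF proteins act in the assembly and the catalytic core. SR proteins and hnRNPs are the RNA-binding proteins that decide which exons are used, SR proteins mostly by promoting an exon and hnRNPs often by repressing it, and their balance is known to shift when neural cells form.

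Values below are log2 of the processed signal minus log2 of the array's 75th percentile. A value of 0 is thus the 75th percentile of the array's spots, control spots left out. A probe's value was compared between arrays. Probes of 1 gene were compared with each other in their differences from control, and by their mean value to choose the brightest. On each array 65.7% to 73.6% of probes were well above background. The 10 markers of embryonal carcinoma cells on the list, POU5F1 among them, and the 7 retinoic acid response genes, CYP26A1 among them, were well above background on all 9 arrays, as were 6 of 8 neural genes. Of 8 markers of other cell types 5 were well above background on all 9 arrays, 2 of them (the B cell gene CD79A and the muscle gene MYH7) above a value of -1 in the control mean, and GFAP was so on none. Of these markers PTPRC, a blood cell gene near the bottom of the scale, was higher with paraoxon by 1.15 (limma's adjusted p = 0.0764) and its part in the results was not tested.

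All 113 splicing and hnRNP probes were well above background on all 9 arrays, against 62.1% of all probes, and none was saturated. None passed the test in either comparison. With paraoxon 0 of 113 probes reached a log2 fold change beyond 1 together with an adjusted p under 0.05 in limma, where the share of all 29134 tested probes was 0%, and with mipafox it was also 0 of 113, against 0%. The count with paraoxon was 2, SNRPC and SNRPD2P2, when mipafox A was left out (limma's adjusted p = 0.0279 and 0.0105), and the count over all probes was then 276. At an unadjusted p under 0.05 in limma, 8 of the 113 probes (7.08%) differed with paraoxon, 3 higher and 5 lower, against 13.3% of all probes, of which 7.31% were higher and 6.02% lower. With mipafox 5 of 113 did (4.42%), 2 higher and 3 lower, against 6.96% of all probes, 2.96% higher and 4% lower. Arrays of the treatment and of the control did not overlap at 19 probes with paraoxon (16.8%, against 23.4% of all probes) and at 9 with mipafox (7.96%, against 11.8%). These shares of the splicing probes lay below those of all probes in each of the counts with an unadjusted p. The counts are small and several probes share a gene, and whether the shares differ was not tested.

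The median log2 fold change of the 113 probes was 0.03 with paraoxon, beside 0.01 over all tested probes, with 62 probes higher and 51 lower. It was -0.01 with mipafox, beside 0.00 over all, with 52 higher and 61 lower. With either compound 92.9% of the 113 probes differed from control by less than 0.5, where 84.1% of all probes did so with paraoxon and 90.8% with mipafox. Arrays of one treatment varied with a median residual SD of 0.216 at the splicing probes and 0.250 at all probes. Only the SNRPD2P2, SNRPC and SF3B3 probes described below differed from control by more than 1 with paraoxon, and none did with mipafox. In RNA from whole cultures, fewer cells of a type and less RNA per cell cannot be told apart.

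**Figure D1:**
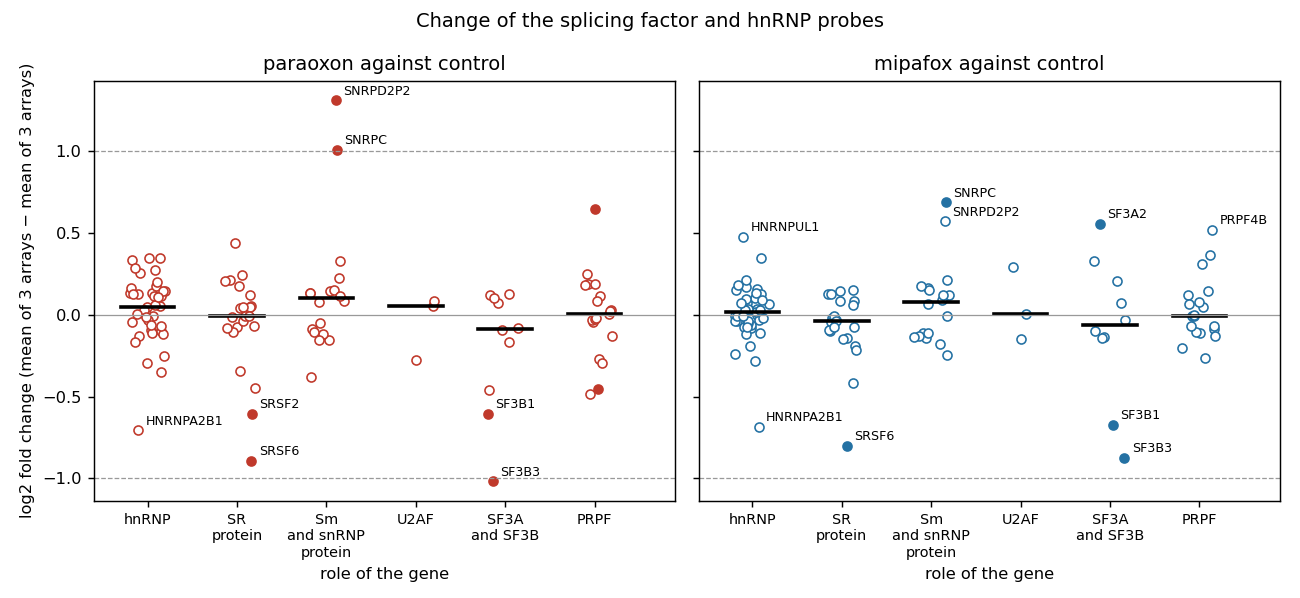
Log2 fold change of each of the 113 probes against control, with paraoxon on the left and mipafox on the right, sorted by the role of the gene. Filled points had an unadjusted p under 0.05 in limma (8 and 5 probes), open points did not, black bars are medians and dashed lines mark differences of 1. No point passed the adjusted threshold, and most points lie within 0.5 of 0.

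The hnRNPs coat nascent RNA and many act as splicing repressors, and they were the largest group with 41 probes of 22 genes. None of the 41 had an unadjusted p under 0.05 with either compound. Their median difference was 0.05 with paraoxon (25 higher, 16 lower) and 0.02 with mipafox (21 higher, 20 lower). HNRNPA1, a repressor of exon inclusion, had values of 7.48, 7.37 and 7.39 in control (arrays A, B and C in this order throughout), of 7.22, 7.34 and 7.74 with paraoxon and of 7.69, 7.48 and 7.39 with mipafox (probe A_32_P42197). The 3 groups overlapped, and the difference was 0.01 with paraoxon (standard error, SE, 0.17) and 0.10 with mipafox. A further HNRNPA1 probe, A_24_P517901, lies upstream in the gene and differed by 0.35 with paraoxon and 0.03 with mipafox. HNRNPA1L2, a gene so close to HNRNPA1 in sequence that their probes may not tell them apart, had 5 probes whose differences lay between -0.09 and 0.34 with paraoxon.

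HNRNPC, which binds runs of uridines and keeps cryptic exons out, gave 4.56, 4.82 and 4.70 in control, 4.63, 4.55 and 4.61 with paraoxon and 4.84, 4.61 and 4.41 with mipafox at its brightest probe. The differences of -0.10 (SE 0.15) and -0.07 were within the error. A further HNRNPC probe, A_24_P178423, lies on chromosome 2 of hg19 while RefSeq places the gene on chromosome 14, and it differed by -0.11 with paraoxon. HNRNPK, which binds stretches of cytosines, differed by 0.05 with paraoxon and 0.09 with mipafox, each with a SE of 0.14. HNRNPM, a regulator of exons in epithelial and other cells, had the smallest p of the hnRNPs with mipafox, with 2.65, 2.75 and 2.84 in control and 2.84, 3.14 and 3.30 with mipafox. The groups overlapped by a small margin between control C and mipafox A, and the difference was 0.35 (SE 0.17, limma's adjusted p = 0.784).

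HNRNPA2B1, which sorts RNA for transport as well as for splicing, showed the widest spread between arrays among the hnRNPs named here. Its probe A_33_P3362891 (chr7:26240222-26240281, minus strand) had values of 3.79, 3.42 and 3.18 in control, 3.26, 2.39 and 2.62 with paraoxon and 3.49, 3.05 and 1.79 with mipafox. Mipafox C was the lowest of the 9 arrays, and each exposed group overlapped with the control. The difference was -0.70 with paraoxon (SE 0.41, limma's adjusted p = 0.516) and -0.69 with mipafox. Without mipafox C the difference with mipafox was -0.19, and without mipafox A it was -1.04. A slide block made the differences 0.37 with paraoxon and 0.03 with mipafox. The other probe of the gene, A_24_P3973, lies downstream in the gene and differed by -0.13 and -0.08, within its SE of 0.16.

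HNRNPA3, a relative of HNRNPA2B1, had 5 probes, and 2 of them are assigned to the same 60 bases (chr2:178080329-178080388, plus strand of hg19). The array therefore carried 2 probes for one stretch, which are shown because they have the same gene name and position but not the same sequence. Whether they bind different RNAs was not tested. Capitals mark the bases that differ.
HNRNPA3 A_24_P269895: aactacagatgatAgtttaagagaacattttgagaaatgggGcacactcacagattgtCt
HNRNPA3 A_33_P3422170: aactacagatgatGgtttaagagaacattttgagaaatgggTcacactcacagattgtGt
The sequences share 57 of 60 bases and differ by A14G, G42T and C59G, counted from the first base as printed, with the base of A_24_P269895 first. A_24_P269895 had values of 1.35, 1.15 and 1.28 in control, 1.44, 0.94 and 0.52 with paraoxon and 1.21, 1.34 and 0.90 with mipafox. Its difference was -0.29 with paraoxon (SE 0.23), or -0.067 without paraoxon C and -0.53 without paraoxon A, and -0.11 with mipafox. A_33_P3422170 had values of -0.22, -0.33 and -0.30 in control, 0.11, -0.29 and -0.70 with paraoxon and -0.37, 0.03 and -0.53 with mipafox, with differences of -0.01 and -0.01. On both probes paraoxon A was the highest and paraoxon C the lowest of the paraoxon arrays. The other HNRNPA3 probes differed by 0.15, 0.35 and 0.00 with paraoxon, and the one at 0.35 (A_24_P706314, SE 0.21) was separated from the control arrays, with 1.62, 1.73 and 1.89 in control and 1.96, 2.26 and 2.07 with paraoxon. With slide as a block it differed by -0.22.

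The SR proteins, which bind exons through their RNA recognition motifs and recruit the spliceosome through their arginine and serine rich tails, had 22 probes of 13 genes. The median difference was -0.01 with paraoxon (10 higher, 12 lower) and -0.04 with mipafox (7 higher, 15 lower). At an unadjusted p under 0.05, 2 probes were lower with paraoxon (SRSF6 and SRSF2) and 1 was lower with mipafox (SRSF6).

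SRSF6, an SR protein that acts on alternative exons, had 2 probes with different behaviour. Probe A_33_P3238455 (chr20:42087885-42087944, plus strand) is assigned to a transcript variant that the array annotation calls non-coding, and its sequence is shown because the lower signal came from it and not from the probe for the messenger RNA.
SRSF6 A_33_P3238455: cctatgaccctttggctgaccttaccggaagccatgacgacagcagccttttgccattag
Its values were -3.76, -4.27 and -4.12 in control, -4.62, -4.87 and -5.32 with paraoxon and -4.44, -5.14 and -4.97 with mipafox. All 6 exposed arrays lay below the 3 control arrays. The difference was -0.89 with paraoxon (SE 0.25, limma's adjusted p = 0.159), beside -0.80 for mipafox (SE 0.25, limma's adjusted p = 0.518). Mipafox B and C on slide 2 lay 0.61 below mipafox A on slide 1, and with slide as a block the difference was -0.28 with paraoxon and -0.39 with mipafox. The probe of the messenger RNA, A_33_P3220530, gave 2.60, 2.74 and 2.63 in control, 2.61, 2.70 and 2.44 with paraoxon and 3.02, 2.71 and 2.42 with mipafox. All 3 groups overlapped there, and the differences of -0.07 and 0.06 were within the SE of 0.17.

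SRSF2, which promotes exon inclusion and takes part in transcription elongation, also had probes that differed. Probe A_33_P3412945 (chr17:74732232-74732291, minus strand) had values of 1.37, 1.19 and 1.43 in control, 0.71, 1.00 and 0.47 with paraoxon and 0.95, 1.00 and 1.60 with mipafox. The paraoxon arrays all lay below the control arrays, while mipafox C lay above them and mipafox A and B below. The difference with paraoxon was -0.60 (SE 0.21, limma's adjusted p = 0.255) and with mipafox -0.15. With slide as a block the difference with paraoxon was larger, at -0.96 (SE 0.36, limma's unadjusted p = 0.0302, adjusted p = 0.613). On slide 2 alone it was 0.57 lower with paraoxon than on mipafox B and C (SE 0.26, limma's unadjusted p = 0.0694). The brightest SRSF2 probe, A_23_P77776, differed by -0.04 with paraoxon and by 0.13 with mipafox, within its SE of 0.15.

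SRSF3, the smallest SR protein, which also helps to export messenger RNA, had values of 3.02, 3.15 and 3.18 in control, 2.55, 3.18 and 2.27 with paraoxon and 2.71, 2.47 and 2.91 with mipafox at probe A_33_P3232828 (chr6:36564681-36564740, plus strand). The mipafox arrays were all below the control arrays, whereas paraoxon B was level with them. The differences were -0.45 and -0.42 (SE 0.23 each, limma's adjusted p = 0.447 and 0.812). With paraoxon it was -0.25 without paraoxon C and -0.71 without paraoxon B. The brightest SRSF3 probe, nearer to the end of the gene, differed by 0.05 with paraoxon and -0.05 with mipafox. SRSF1, the first SR protein described, differed by 0.24 with paraoxon (SE 0.17) and 0.14 with mipafox. SRSF5 differed by 0.12 and by -0.00 at its brightest probe, within the SE of 0.21.

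The Sm and other snRNP proteins had 18 probes of 12 genes, and with them the highest values above control in the whole set. Their median difference was 0.10 with paraoxon (11 higher, 7 lower) and 0.08 with mipafox (10 higher, 8 lower). SNRPC, the U1 snRNP protein that steadies pairing with the start of the intron, was measured by a probe in the upstream part of the gene, A_24_P83922 (chr6:34730394-34730453, plus strand), and by a probe 10969 bases downstream, A_23_P59192. The sequence of the first is shown because it had the smallest p of all 113 probes in both comparisons.
SNRPC A_24_P83922: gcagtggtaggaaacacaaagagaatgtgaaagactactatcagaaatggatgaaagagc
Its values were -2.45, -2.16 and -2.22 in control, -1.13, -1.43 and -1.24 with paraoxon and -1.89, -1.26 and -1.61 with mipafox. Every exposed array was above every control array. The control mean was -2.28 ± 0.15 (SD, n = 3 arrays). With paraoxon the mean was -1.27 ± 0.15 (SD, n = 3), higher by 1.01 (SE 0.18, limma's adjusted p = 0.0764). With mipafox it was -1.59 ± 0.32 (SD, n = 3), higher by 0.69 (limma's adjusted p = 0.445). Mipafox A, on the slide of the controls, lay 0.39 above the control mean and 0.46 below mipafox B and C. With slide as a block the difference with paraoxon was 0.55 (SE 0.28).

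The downstream SNRPC probe did not follow. It gave 4.76, 4.91 and 4.87 in control, 4.76, 4.67 and 4.86 with paraoxon and 5.04, 5.00 and 4.70 with mipafox. The groups overlapped, and the differences were -0.08 (SE 0.14) and 0.07.

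SNRPD2P2 is a pseudogene of SNRPD2, the gene of a core Sm protein, and it had the largest difference of the set. Its sequence is shown because a pseudogene probe can also meet the RNA of the parent gene, which was not tested.
SNRPD2P2 A_33_P3384900: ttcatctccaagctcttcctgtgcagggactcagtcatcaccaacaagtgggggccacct
The probe (chr1:231611703-231611762, minus strand) had values of -0.36, -0.23 and -0.01 in control, 1.00, 1.36 and 0.97 with paraoxon, and -0.30, 0.73 and 0.68 with mipafox. High values came from the 5 arrays of slide 2, which are the paraoxon ones with mipafox B and C, and low values from the 4 arrays of slide 1. The difference with paraoxon was 1.31 (SE 0.27, limma's adjusted p = 0.0873). It was 0.57 for mipafox (limma's adjusted p = 0.752), or 0.91 without mipafox A. Mipafox B and C lay 1.01 above mipafox A, and with slide as a block the differences were 0.31 with paraoxon (SE 0.28) and -0.10 with mipafox. SNRPD2 itself differed by -0.15 with paraoxon and -0.25 with mipafox (SE 0.16 each). The study, with its own normalization and the same limits, listed SNRPD2P2 among the genes higher with paraoxon. In the fit of all arrays here the probe did not pass these limits. It passed them when the mipafox arrays were left out of the fit (limma's adjusted p = 0.0204), without mipafox A (0.0105) and with array weights (0.00431). The other settings with an adjusted p, the authors' values among them, did not call it. The cause of the difference from the study was not tested.

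SNRPB, the largest of the core Sm proteins, gave 4.47, 4.56 and 4.58 in control, 4.25, 4.41 and 3.81 with paraoxon and 4.28, 4.28 and 4.62 with mipafox. The paraoxon arrays lay below the control arrays, with paraoxon C farthest away, and the difference was -0.38 (SE 0.18, limma's adjusted p = 0.413). It was -0.14 with mipafox, and without paraoxon C the difference with paraoxon was -0.21. SNRPD1, another core Sm protein, differed by -0.12 and -0.13 at its brightest probe (SE 0.18 each), and SNRPA, which binds a loop of the U1 RNA, by -0.16 and 0.09 (SE 0.22). All 4 SNRPE probes differed by 0.13 to 0.15 with paraoxon, each less than its SE.

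U2AF had 3 probes of 3 genes, of which none had an unadjusted p under 0.05. U2AF1, the smaller subunit, which reads the last bases of the intron, was very even over the control arrays at 6.05, 6.03 and 6.04. It gave 6.05, 6.08 and 6.15 with paraoxon and 6.38, 6.10 and 5.65 with mipafox, and the difference was 0.05 and 0.00 (SE 0.18). U2AF2, the larger subunit, which binds the polypyrimidine tract, differed by 0.09 with paraoxon and 0.30 with mipafox (SE 0.29 each). Mipafox C was the lowest of the mipafox arrays for both genes.

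The SF3A and SF3B proteins had 10 probes of 9 genes, 4 higher and 6 lower with either compound, with a median difference of -0.09 for paraoxon and -0.06 for mipafox. The medians of the 10 probes against their control means were 0.14, -0.05 and -0.03 in control, -0.16, -0.13 and -0.14 with paraoxon, and 0.06, -0.13 and -0.10 with mipafox, in the order A, B, C. The 5 arrays of slide 2 were thus below the 4 arrays of slide 1, by less than the distance between control A and control B. At an unadjusted p under 0.05, SF3B3 and SF3B1 were lower with both compounds and SF3A2 was higher with mipafox.

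**Figure D2:**
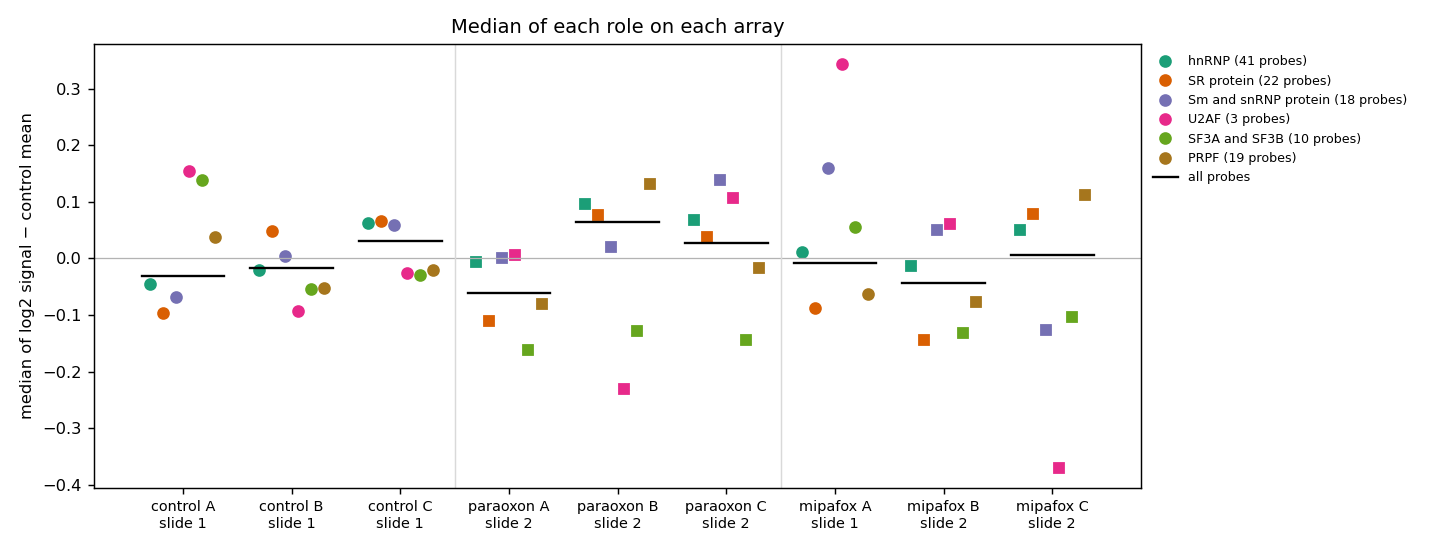
Median over the probes of each role of the log2 signal minus the control mean of the probe, for each of the 9 arrays, with circles for slide 1, squares for slide 2 and a black bar for all 113 probes. The black bars stay between -0.06 and 0.06, the SF3A and SF3B medians lie below 0 on all arrays of slide 2, and the 3 U2AF probes scatter most, from 0.34 on mipafox A to -0.37 on mipafox C.

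SF3B3, a large scaffold protein of the SF3B complex, was measured near its start by probe A_32_P173298 (chr16:70562923-70562982, plus strand) and 43125 bases downstream by A_23_P135914. SF3B1, the subunit that clasps the branch point, had the single probe A_23_P368393, whose bases are spread over 546 bases of the gene (chr2:198285246-198285791, minus strand) and so cross an intron. Both sequences are shown because they were the SF3B probes with the lowest p.
SF3B3 A_32_P173298: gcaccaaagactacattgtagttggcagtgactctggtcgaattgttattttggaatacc
SF3B1 A_23_P368393: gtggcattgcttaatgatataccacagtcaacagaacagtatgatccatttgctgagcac
The upstream SF3B3 probe had values of -2.83, -3.04 and -3.64 in control, -3.75, -4.61 and -4.20 with paraoxon and -3.48, -4.02 and -4.63 with mipafox. All paraoxon arrays lay below the control arrays, though paraoxon A was close to control C, and mipafox A lay among the controls. The difference was -1.02 with paraoxon (SE 0.34, limma's adjusted p = 0.234), beside -0.87 for mipafox (limma's adjusted p = 0.648), the latter -0.58 without mipafox C. Mipafox B and C were 0.85 below mipafox A, and with slide as a block the difference with paraoxon was -0.17 (SE 0.53).

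The downstream SF3B3 probe gave 1.85, 1.61 and 1.52 in control, 1.69, 1.56 and 2.12 with paraoxon and 1.94, 2.19 and 1.85 with mipafox. The mipafox arrays were all above the control arrays, by little in the case of mipafox C, and the differences were 0.13 with paraoxon and 0.33 with mipafox (SE 0.18 each).

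SF3B1 gave -0.84, -0.66 and -0.75 in control, -1.10, -1.08 and -1.88 with paraoxon and -1.06, -1.57 and -1.64 with mipafox. All exposed arrays were below the control arrays, and paraoxon C was the lowest of all. The difference was -0.60 with paraoxon (SE 0.24, limma's adjusted p = 0.323), beside -0.67 for mipafox (limma's adjusted p = 0.614). Without paraoxon C it was -0.34 with paraoxon, and with slide as a block -0.06 (SE 0.40).

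SF3A2, a subunit that joins SF3A to the branch site, had values of 2.41, 1.60 and 1.71 in control, 2.03, 1.75 and 2.32 with paraoxon and 2.24, 2.65 and 2.51 with mipafox. Control A lay above mipafox A, so the groups overlapped, and the difference with mipafox was 0.56 (SE 0.24, limma's adjusted p = 0.706). With paraoxon it was 0.12. SF3A1 differed by 0.07 and -0.14 (SE 0.18).

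The PRPF proteins, among them components of the tri-snRNP and of the complex that activates it, had 19 probes of 13 genes. The median difference was 0.01 with paraoxon (10 higher, 9 lower) and -0.01 with mipafox (8 higher, 11 lower). PRPF8, the protein at the heart of the catalytic core, had values of 1.65, 1.06 and 1.02 in control, 1.25, 1.29 and 1.13 with paraoxon and 1.32, 1.19 and 1.40 with mipafox. The exposed arrays lay within the range of the control arrays, and the differences were -0.02 and 0.06 (SE 0.18). PRPF19, the ubiquitin ligase of the activating complex, differed by 0.03 and -0.07 (SE 0.19).

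PRPF38B, a relative of a tri-snRNP maturation factor, gave 0.21, -0.05 and -0.02 in control, -0.19, -0.50 and -0.52 with paraoxon and -0.07, -0.24 and -0.35 with mipafox at probe A_33_P3329834. All exposed arrays were below the control arrays, with mipafox A close to control B, and the differences were -0.45 (SE 0.15, limma's adjusted p = 0.243) and -0.27. PRPF4, a protein of the tri-snRNP, differed by -0.27 with paraoxon (SE 0.13, limma's adjusted p = 0.404) and by -0.10 with mipafox. PRPF4B, a kinase that acts on the assembling spliceosome, differed by 0.18 with paraoxon and by 0.52 with mipafox at probe A_23_P168240. The SE was 0.24 each (limma's adjusted p = 0.826 and 0.75), and the difference with mipafox was 0.30 without mipafox C. Its probes A_33_P3337034 and A_24_P941787 differed by -0.13 and 0.25 with paraoxon and by 0.36 and 0.08 with mipafox.

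**Figure D3:**
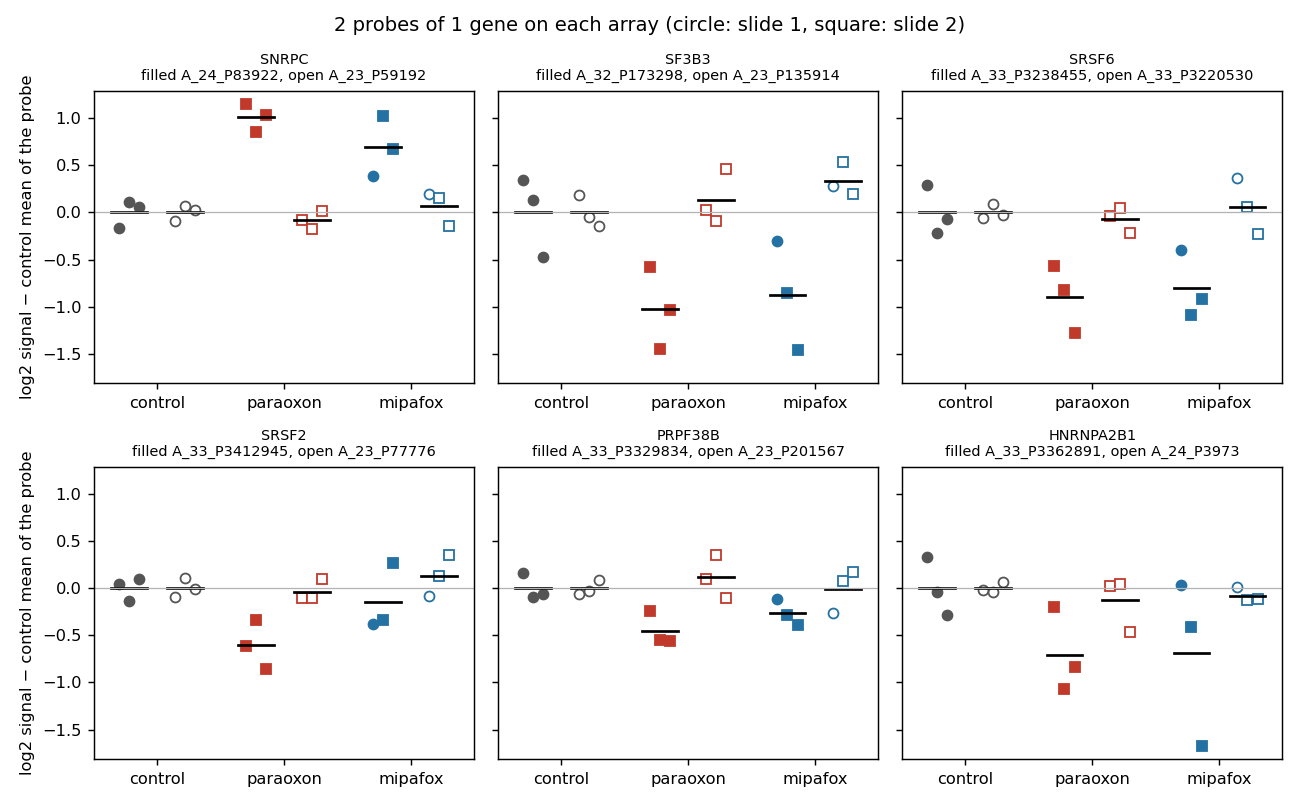
Log2 signal minus the control mean of the probe on each array for 2 probes of each of 6 genes, filled for the probe with the larger difference with paraoxon and open for the other, with circles for slide 1, squares for slide 2 and bars for the mean of 3 arrays. The means of the open points lie between -0.13 and 0.33, while the filled points of SNRPC are high with paraoxon and those of SF3B3, SRSF6, SRSF2, PRPF38B and HNRNPA2B1 are low.

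Probes of one gene were compared because 28 of the 72 genes had 2 or more. In 13 of the 28 the probes of the gene differed from control with opposite signs with paraoxon, and the median range between the probes of a gene was 0.36. Signs were counted also where a difference was within its SE. The share and the median range over all genes were not computed, so neither value is read as particular to the splicing genes. Wide ranges were those of SF3B3 (1.15), SNRPC (1.09), SRSF6 (0.82), HNRNPA3 (0.64) and HNRNPA2B1 (0.58). In 27 genes the most upstream and the most downstream probe, by the strand of the gene, lay at least 60 bases apart. This comparison was chosen after the values were seen. The upstream probe was lower relative to the downstream probe in 22 of the 27 genes with paraoxon, with a median difference in log2 fold change of -0.27. With mipafox it was lower in 20 of 27, with a median of -0.17. Over all 4400 genes with such a pair, the upstream probe was lower in 72.4% with paraoxon (median -0.21) and in 71.4% with mipafox (median -0.16), against 81.5% and 74.1% of the splicing genes.

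On single arrays the median of upstream minus downstream over the 27 genes, against its control mean, was 0.12, -0.09 and 0.01 in control, -0.08, -0.10 and -0.56 with paraoxon, and -0.08, -0.29 and -0.11 with mipafox, in the order A, B, C. Paraoxon C stood apart, and paraoxon A and mipafox A were no lower than control B. Over the 4400 genes it was 0.07, -0.04 and -0.03 in control, -0.13, -0.15 and -0.30 with paraoxon, and -0.13, -0.19 and -0.18 with mipafox, so that all 6 exposed arrays, mipafox A of slide 1 among them, were below the control arrays. Without paraoxon C the upstream probe was lower in 18 of the 27 splicing genes, with a median of -0.12. With slide as a block it was lower in 19 of 27, with a median of -0.22. The part of this difference along the gene in the lower values of the upstream SF3B3, SRSF6, SRSF2, SRSF3, PRPF38B and HNRNPA2B1 probes was not tested. SNRPC ran against it, with an upstream probe 1.09 higher than the downstream probe with paraoxon.

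**Figure D4:**
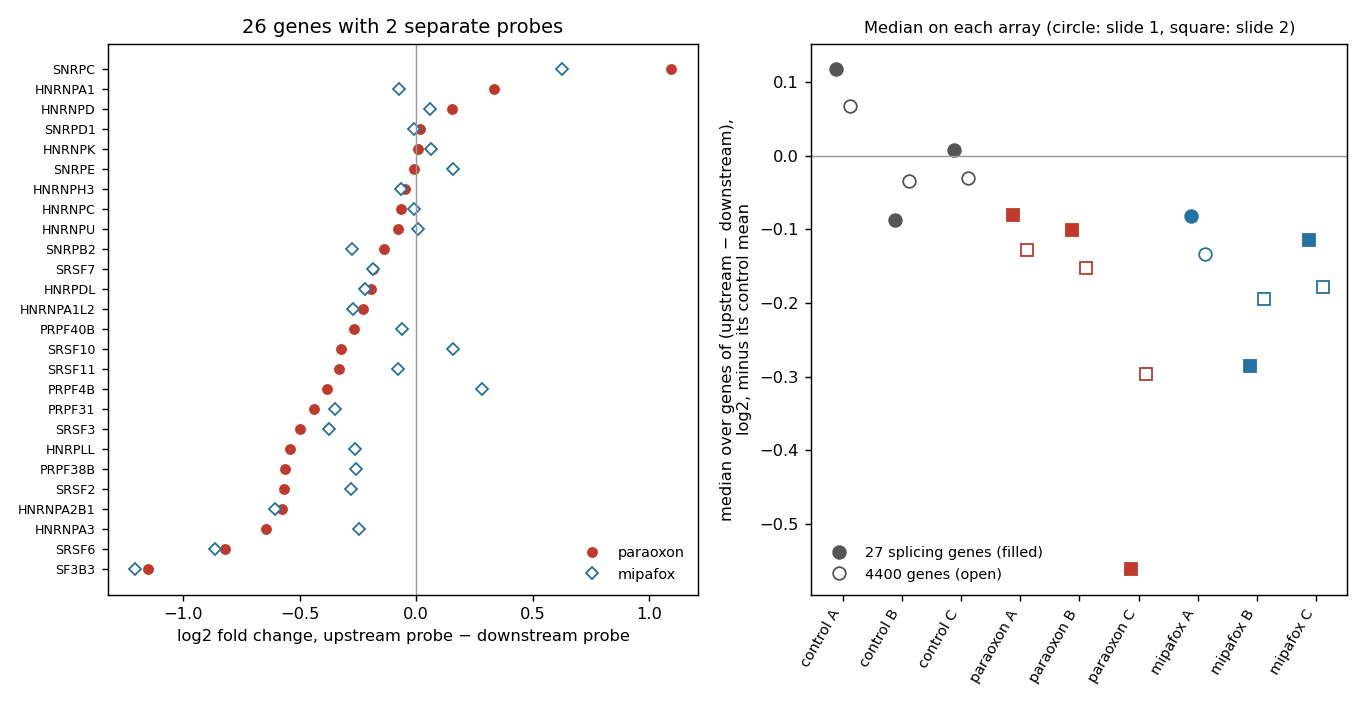
Left, difference in log2 fold change between the most upstream and the most downstream probe of 26 of the 27 splicing and hnRNP genes, with dots for paraoxon and diamonds for mipafox. Right, the median of that difference on each array against its control mean, filled for the 27 genes and open for 4400 genes, with circles for slide 1 and squares for slide 2. SNRPC is at the far right of the left panel (1.09 with paraoxon), SF3B3 at the far left (-1.15), and paraoxon C is the lowest array in the right panel (-0.56).

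The slide was taken as a block in a further limma fit, in which mipafox alone links the slides and mipafox A alone stands for exposure on slide 1. With paraoxon 6 of the 113 probes (5.31%) then had an unadjusted p under 0.05, against 8.02% of all probes, and with mipafox 0 did, against 5.48%. The 6 were PRPF19, SF3A1 and HNRNPA0, which were higher by 0.64, 0.59 and 0.58, and SF3B4, SRSF2 and HNRPLL, which were lower, at -1.33, -0.96 and -0.90. Of these only SRSF2 also had an unadjusted p under 0.05 without the block, and each had limma's adjusted p = 0.613. On slide 2 alone, where paraoxon at 1 µM stood beside mipafox at 5 µM, 3 of 113 probes (2.65%) had an unadjusted p under 0.05, against 3.25% of all probes, and 0 passed the adjusted threshold. Among them were SF3A2 (-0.55, SE 0.22) and SF3B4 (-0.96, SE 0.30). SF3B4, a subunit that holds SF3B to the pre-mRNA and was named here after its values were seen, gave -1.97, -2.53 and -2.41 in control, -2.54, -2.56 and -3.19 with paraoxon and -2.67, -2.14 and -1.47 with mipafox. Mipafox C was its highest array and paraoxon C its lowest.

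**Figure D5:**
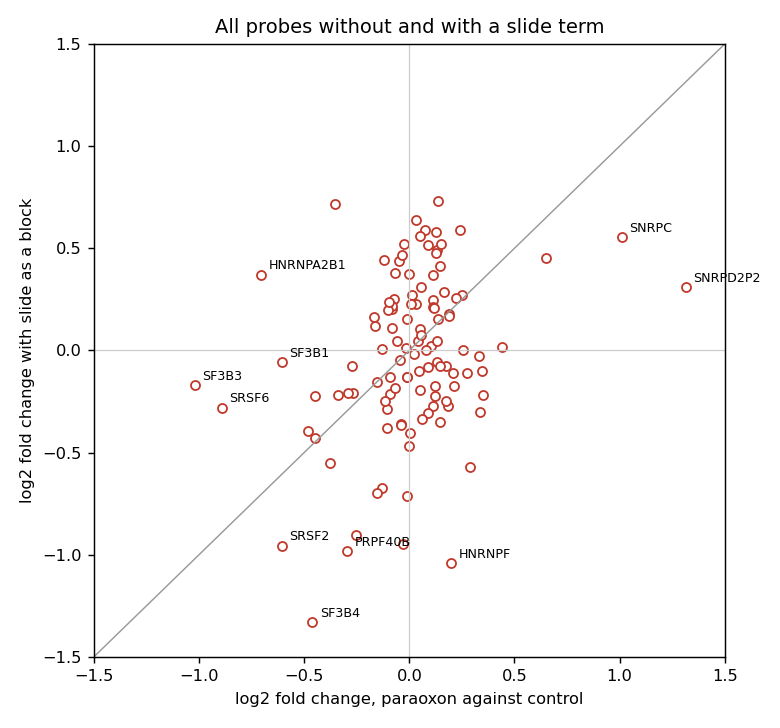
Log2 fold difference with paraoxon of the 113 probes in the fit without a slide term (horizontal) and with slide as a block (vertical), with the line of equal values. SNRPD2P2 has 1.31 without and 0.31 with the block, SNRPC 1.01 and 0.55, SF3B3 -1.02 and -0.17, SRSF6 -0.89 and -0.28, and SF3B4 -0.46 and -1.33.

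A list of 88 further splicing genes that the name rule does not take, of which 87 were tested with 115 probes, also had 0 probes called with either compound. With paraoxon 3 of the 115 were higher and 11 lower at an unadjusted p under 0.05 in limma (12.2%, against 13.3% of all probes), and the median difference was -0.06. With mipafox 6 were higher and 8 lower (12.2%, against 6.96%), and the median was -0.04. PTBP1, the repressor of neural exons, gave -0.45, -0.67 and -0.79 in control, -0.47, -0.41 and -0.79 with paraoxon and -0.89, -0.41 and -0.16 with mipafox. Its differences of 0.08 and 0.15 were within the SE of 0.21, and those of PTBP2, its neural relative, were 0.05 and -0.13 (SE 0.25).

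RBFOX2, a regulator of neural and muscle exons, gave -1.0, -1.04 and -1.11 in control, -1.84, -1.66 and -2.69 with paraoxon and -1.64, -1.95 and -1.61 with mipafox at its brighter probe, A_23_P103099. The exposed arrays were all lower than the control arrays, on both slides, and the difference was -1.01 with paraoxon (SE 0.25, limma's adjusted p = 0.124), beside -0.68 for mipafox (limma's adjusted p = 0.619). Its other probe, A_33_P3217103, lies downstream in the gene and differed by -0.06 and -0.03. The part of the difference along the gene in the lower RBFOX2 values was not tested. SRRM4, the activator of neural microexons, gave -4.67, -4.60 and -4.98 in control, -4.52, -4.42 and -4.65 with paraoxon and -4.21, -4.04 and -4.03 with mipafox. The mipafox arrays were the highest, mipafox A of slide 1 included, and the difference with mipafox was 0.65 (SE 0.15, limma's adjusted p = 0.344). CLK1, a kinase of SR proteins, differed by 0.00 with paraoxon and -0.37 with mipafox at probe A_23_P16817 (SE 0.39 each), and by -1.16 and -1.15 once slide was a block, where mipafox A, the lowest array at -1.33, stands alone for exposure on slide 1. SRPK1, another such kinase, differed by 0.12 (SE 0.16) with paraoxon. CLK3, a relative of CLK1 named after its values were seen, had the smallest adjusted p of the list with paraoxon. Its probe A_32_P20691 gave 1.25, 1.09 and 1.31 in control, 1.99, 2.17 and 2.10 with paraoxon and 1.66, 2.0 and 1.71 with mipafox. All exposed arrays, on both slides, were above the control arrays. The probe was higher by 0.87 with paraoxon (SE 0.14, limma's adjusted p = 0.0740) and by 0.57 with mipafox (SE 0.14, limma's adjusted p = 0.419), and a slide block left 0.67 (SE 0.24, limma's adjusted p = 0.613) and 0.44. NOVA1, a neuronal splicing factor, differed by -0.14 (SE 0.16), SNRNP70, the U1 protein that binds SR proteins, by -0.47 (SE 0.26) and TRA2B, an SR-like activator, by 0.06 (SE 0.15).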

How the data were processed

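Total RNA was labelled with Cy3 and hybridized to one-colour arrays. The authors deposited the Agilent Feature Extraction 10.5.1.1 output of each array, with the processed signal as linear intensity, and their own log2 values, made with the Agi4x44PreProcess package; the background correction and normalization options chosen in it are not given in the sources used here. Probe coordinates are those of the file headers, on hg19 (GRCh37), and gene names are those of the array; 5 symbols are older ones by RefSeq. Control spots were left out, and the 75th percentile of each array was taken over all other spots. It was subtracted from the processed signal on the log2 scale, spots with outlier flags were left out, and repeat spots were averaged per probe. A probe was tested if it was well above background throughout 1 treatment or more and kept 2 values in each; the 29134 such probes were fitted with limma 3.58.1 in R 4.3.3, 1 mean per treatment over 9 arrays, with Benjamini-Hochberg adjustment over all of them. A call required a log2 fold change beyond 1 at an adjusted p under 0.05. Precision is limited by the number of arrays.

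Named probes were the 10 with the smallest p in each comparison and all probes of the 6 genes with the widest range between probes. The brightest probe of 17 representative genes and of 9 further splicing genes was named too. SF3B4, HNRPLL, HNRNPA0, HNRNPUL1, SNRPD2, SNRPE, HNRNPA1L2, CLK3 and further probes of HNRNPA1 and PRPF4B were added after their values were seen. One gene that the rule names is not reported here; counts and medians include it. The members and the lists were chosen with earlier results of these data known. Alternatives changed the normalization (quantile, median), background correction (normexp), dim-probe filter, outlier flags, slide or letter block, arrays fitted, variance model, array weights, probes per gene and thresholds, used the authors' values, or left out each array; for single probes and the upstream and downstream comparison they were chosen after seeing the data. The fit was tested on simulated data with noise independent between arrays and no slide effect. The planted changes were larger than any at the splicing probes, and the overlap of slide and treatment was not simulated. Figures were drawn with matplotlib 3.10.9.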

Additional observations from a re-analysis of the deposited data

How the results depend on the processing

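For single probes, a turn in direction was read here only where the change without the alternative exceeded its standard error. The counts of higher and lower probes and of opposite signs above took every sign without that limit. With slide as a fixed block, the change with paraoxon turned to -0.11 for HNRNPM, -0.075 for HNRNPA3 A_23_P86660, 0.37 for HNRNPA2B1 A_33_P3362891 and -0.22 for HNRNPA3 A_24_P706314, and the change with mipafox to -0.10 for SNRPD2P2 and 0.031 for HNRNPA2B1 A_33_P3362891. With array weights that of HNRNPA3 A_24_P269895 with paraoxon turned to 0.067. In a further 114 of 1926 values the sign differed where the change was within its standard error.

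Over all probes, paraoxon against control gave 1 call with slide as a fixed block, 276 when the mipafox arrays were left out of the fit, 627 with array weights and 638 at an unadjusted p, and 0 to 276 with 1 array left out, where 276 came without mipafox A, 93 without mipafox B and 1 without mipafox C. Mipafox gave 6 with the fixed block, 1024 with array weights and 246 at an unadjusted p, and 0 to 76 with 1 array left out, 76 of them without mipafox A. Among the splicing probes, SNRPC A_24_P83922 and SNRPD2P2 were the 2 calls with paraoxon when the mipafox arrays were left out (limma's adjusted p = 0.0315 and 0.0204), with array weights (0.00343 and 0.00431) and without mipafox A (0.0279 and 0.0105), so the range with 1 array left out was 0 to 2. At an unadjusted p SF3B3 A_32_P173298 made it 3. With mipafox the 1 call came with array weights, from HNRNPUL1 A_24_P376294 (1.06, limma's adjusted p = 0.00594; 0.48 without weights), and 0 came with any array left out. The median of the splicing probes with paraoxon was -0.040 with array weights and -0.01 to 0.08 with 1 array left out. With mipafox it was 0.027 with the authors' values, and -0.019 to 0.028 with 1 array left out, where it was 0.028 without control C and 0.02 without mipafox B. The median difference between upstream and downstream probes was -0.37 to -0.12 with paraoxon and -0.25 to -0.09 with mipafox over the arrays left out. The replicate letter as a block left 0 splicing probes called in either comparison. Arrays of 1 letter correlated between -0.60 and 0.57 in their deviations from the treatment means, and the letters were not taken as pairs. Correlations between arrays of different letters were not computed, so whether the letters pair the arrays is not settled. The other settings left the counts at 0, where a count cannot fall, and the cause of the changes was not tested. All splicing probes were well above background on all arrays. SRSF6 A_33_P3238455 and SF3B3 A_32_P173298 nonetheless had values far below 0, and SNRPC A_24_P83922 and SF3B4 also lay below 0 on all arrays. The part of low signal in the differences of these probes was not tested. The 3 arrays per treatment limit all of the splicing probes.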
